A study of Mus musculus with 7 samples.

Results

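The genes described here are the extracellular proteases of the matrix metalloproteinase (Mmp) and ADAMTS families and their inhibitors, the Timp genes, followed cell type by cell type in single-cell libraries of mouse aorta. Members were taken by symbol from the gene list of the files (Mmp with a number and an optional a or b, Adamts with a number, Timp1 to Timp4), which gave 45 of 31253 genes: 22 Mmp, 19 Adamts and 4 Timp genes. Over all kept cells 28 members held at least 1000 UMIs, 17 held fewer, and 2 of these, Mmp7 and Mmp20, were at 0. A UMI (unique molecular identifier) marks 1 captured transcript. The libraries came from 4 Slc38a2deltaEC samples, in which the labels place the loss of Slc38a2 in endothelial cells, and 3 Slc38a2flox/flox samples. All were from mice on a high-salt diet for 3 weeks, so no group on a normal diet was analysed here. The labels name no Cre line, strain, sex or age, and nothing in them says whether each library is a separate animal, so p-values refer to libraries and not to animals. The edgeR tests of levels also borrow the estimate of spread from the other genes of the same fit. A very small p in a type with few cells or libraries is thus not the spread of that gene alone, and p-values do not rank certainty between types.

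Mmp enzymes are zinc-dependent endopeptidases that cut collagens, gelatin, elastin, proteoglycans and other matrix proteins, either after secretion or while anchored in the plasma membrane. ADAMTS enzymes are secreted relatives with thrombospondin repeats. Some of them cut the proteoglycans aggrecan and versican, and others trim the ends of fibrillar procollagens. The 4 TIMP proteins bind the active site of Mmp enzymes and block them, and Timp3 inhibits ADAMTS enzymes as well. In an artery this balance sets how the elastic and collagenous wall is turned over.

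A run of 9 Mmp genes lies side by side on chromosome 9 (GRCm38, chr9:7272514-7699585), in the order Mmp13, Mmp12, Mmp1b, Mmp3, Mmp10, Mmp8, Mmp27, Mmp20 and Mmp7. They include the collagenases Mmp13 and Mmp8, the stromelysins Mmp3 and Mmp10 and the macrophage elastase Mmp12. Their promoters are shown because genes of this cluster are textbook targets of AP-1, the Fos and Jun dimer. The 120 bases before the annotated start are given for 6 of them, from RefSeq for GRCm38.p6, all on the plus strand: Mmp13 at chr9:7272394-7272513, Mmp12 at its 2 annotated starts, chr9:7344277-7344396 (upstream) and chr9:7347254-7347373 (internal), Mmp3 at chr9:7445702-7445821, Mmp10 at chr9:7502222-7502341, Mmp8 at chr9:7558309-7558428 and Mmp27 at chr9:7571276-7571395. Capitals mark the AP-1 letters TGANTCA, searched on both strands and counted once where the strands overlap.
Mmp13: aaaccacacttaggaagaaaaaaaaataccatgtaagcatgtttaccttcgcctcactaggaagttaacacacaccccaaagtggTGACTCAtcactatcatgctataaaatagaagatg
Mmp12, upstream start: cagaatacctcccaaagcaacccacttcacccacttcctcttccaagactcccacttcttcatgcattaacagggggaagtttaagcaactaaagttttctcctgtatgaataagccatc
Mmp12, internal start: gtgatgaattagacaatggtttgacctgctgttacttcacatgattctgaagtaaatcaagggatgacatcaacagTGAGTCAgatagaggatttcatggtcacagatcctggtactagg
Mmp3: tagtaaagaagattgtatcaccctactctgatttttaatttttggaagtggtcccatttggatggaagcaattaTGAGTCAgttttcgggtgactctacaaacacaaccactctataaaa
Mmp10: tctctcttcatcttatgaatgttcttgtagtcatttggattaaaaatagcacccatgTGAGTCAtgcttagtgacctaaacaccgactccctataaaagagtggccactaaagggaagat
Mmp8: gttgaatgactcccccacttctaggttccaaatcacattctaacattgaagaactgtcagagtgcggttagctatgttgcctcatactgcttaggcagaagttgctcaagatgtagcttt
Mmp27: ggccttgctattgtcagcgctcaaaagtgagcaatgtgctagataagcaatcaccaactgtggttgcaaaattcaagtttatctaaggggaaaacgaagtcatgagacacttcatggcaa
RefSeq gives 11 such windows for the 9 cluster genes, and 7 of them, each of another gene, held the motif. It began 35 bases before the start in Mmp13, 46 in Mmp3 and 44 before the internal start of Mmp12. It was not in the upstream window of Mmp12, in 1 of the 2 windows of Mmp7, or in those of Mmp8 and Mmp27. In the 23 windows of the other 22 members with a promoter in the table (31 members matched) there were 0 matches, and 3.41% of 32851 promoter windows of this length held it. A match of letters is a description of the sequence and not evidence of binding.

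Depth was 6167 to 13792 barcodes and 22646246 to 73102988 UMIs per library, and 67477 of 76359 barcodes were kept. Cell types were assigned per cell from marker genes that include no member, which placed 60575 cells and left 6902 (10.2%) ungated, with a median of 731 UMIs. Fibroblast-like cells numbered 2825 to 6603 per library, smooth muscle-like cells 328 to 5315, macrophage-like cells 152 to 813 and endothelial-like cells 46 to 370. The labels give the cell type as goblet cells, but 0 cells held 3 or more of 7 goblet markers. All 8 markers of each of the 4 main types were detected in the cells gated for them. The gate picks cells by these same markers, so their detection does not check the types. Slc38a2 itself stood at 202, 277, 334 and 291 CPM in endothelial-like cells of Slc38a2deltaEC libraries 1 to 4, against 441, 409 and 323 CPM in Slc38a2flox/flox libraries 1 to 3. The labels do not say which exons are deleted, so this level does not check the genotype. CPM is UMIs of a gene divided by all UMIs of the same cell type in the same library, times 1000000. It is a share, so that a gene can read lower where other genes of the same cells read higher.

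Slc38a2flox/flox library 1 stood apart from the others. Its macrophage-like cells held 1194 CPM of 8 summed fibroblast markers, against 194 to 636 CPM in the other 6 libraries, and its fibroblast-like cells held 841 CPM of 8 smooth muscle markers, against 123 to 455 CPM. Fibroblast transcripts are thus read in the other cell types of every library, and most in this one. Results that rest on it are given with and without it.

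The aortic members fell into cell-type groups, as the heat map of levels by cell type shows. Over the 7 types with at least 20 cells in 3 or more libraries, which leave out, among others, neutrophil-like, monocyte-like and lymphatic endothelial-like cells, the mean level of the 28 members with at least 1000 UMIs was highest in fibroblast-like cells for 16, in endothelial-like cells for 4, in macrophage-like cells for 3, in smooth muscle-like cells for 2, in T-like cells for 2 and in mast-like cells for 1. Each type was tested against the sum of all other gated cells of the same library, with the library as a block, across all genes. In fibroblast-like cells 36 members passed the filter on low counts and 24 were higher and 8 lower, while 34.5% of all 14588 genes tested were higher and 34.4% lower. The median log2 fold change was 1.54 over these members and 0.00 over all genes. A member that passes the filter through 1 cell type alone is bound to differ there, so such counts describe the members and test nothing about them as a set.

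**Figure D1:**
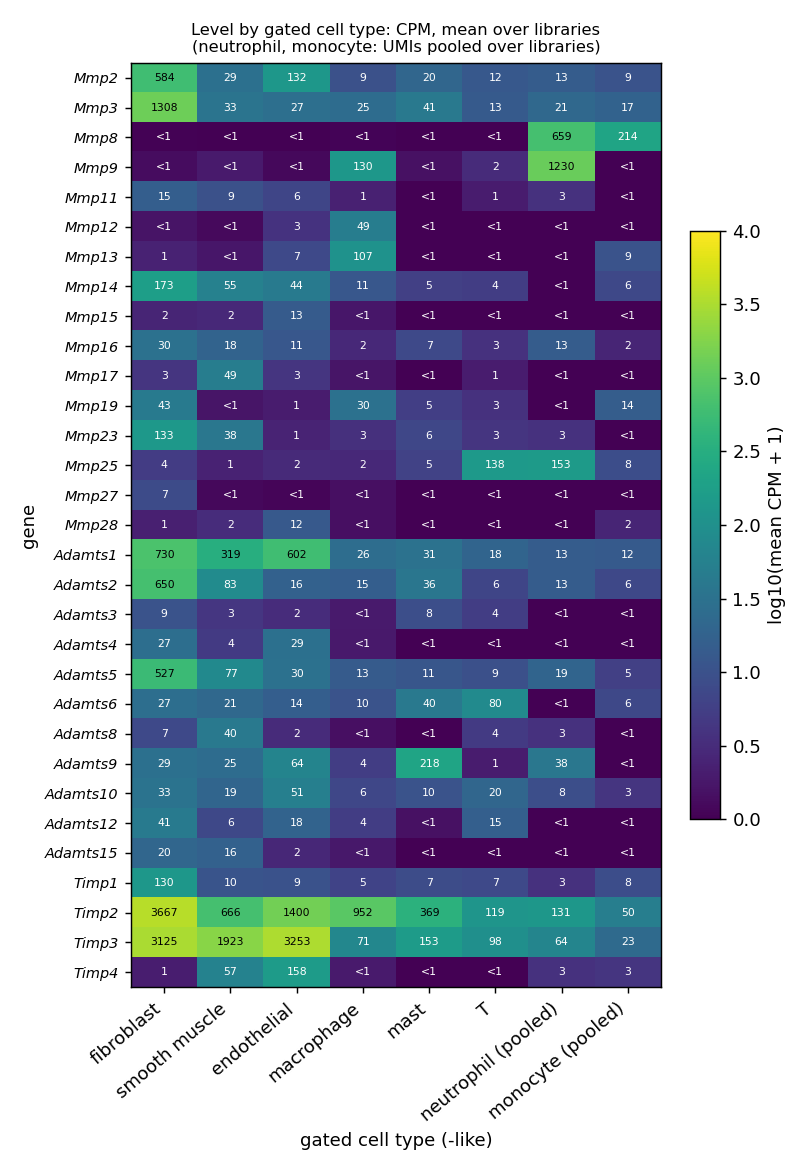
Level of the 28 members with at least 1000 UMIs, and of Mmp8, Mmp15 and Mmp28, by gated cell type; the colour is log10(CPM + 1) and the printed number is the CPM, as a mean over libraries with at least 20 cells of the type, or from UMIs pooled over libraries for neutrophil-like and monocyte-like cells. Mmp2, Mmp3, Mmp14, Mmp23, Adamts2, Adamts5, Timp1 and Timp2 are highest in the fibroblast column, Mmp12 and Mmp13 in the macrophage column, and Mmp17 and Adamts8 in the smooth muscle column.

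The gelatinase Mmp2, which cuts denatured collagen and type IV collagen (chr8:92827291-92853420), ranged in fibroblast-like cells from 479 CPM over a median of 560 CPM to 690 CPM. Its log2 fold change against the other gated cells was 4.30 ± 0.22 (SE, n = 7 libraries, adjusted p = 3.92e-07). Endothelial-like cells came next with 132 ± 20.1 CPM (SD, n = 7), and their range of 106 to 167 CPM lay below every fibroblast value and above every smooth muscle value, where the mean was 29.3 CPM. Per unit of fibroblast marker RNA, Mmp2 read 0.0892 to 0.245 in endothelial-like cells and 0.0194 to 0.0259 in fibroblast-like cells, ranges that did not overlap. In macrophage-like cells the same ratio was 0.00766 to 0.0241.

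The stromelysin Mmp3, which cuts proteoglycans and fibronectin and can activate other Mmp proenzymes (chr9:7445822-7455975), read 1869, 1267, 1063 and 763 CPM in fibroblast-like cells of the Slc38a2deltaEC libraries and 1884, 1179 and 1127 CPM in those of the Slc38a2flox/flox libraries. The log2 fold change of the type was 5.80 ± 0.32 (SE, adjusted p = 5.69e-07). Outside fibroblast-like cells its means were 33.5 CPM in smooth muscle-like, 27.5 CPM in endothelial-like and 24.9 CPM in macrophage-like cells, and in each of these Slc38a2flox/flox library 1 was the highest, at 116, 108 and 103 CPM in that order.

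Membrane-bound Mmp14, the activator of proMmp2, averaged 173 ± 50.3 CPM in fibroblast-like cells (SD, n = 7), 55.3 CPM in smooth muscle-like and 44.1 CPM in endothelial-like cells, and its fibroblast log2 fold change was 1.96 ± 0.16 (SE, adjusted p = 5.01e-06). Mmp23, a small membrane-anchored member, averaged 133 ± 17.4 CPM in fibroblast-like and 38.2 CPM in smooth muscle-like cells, with a log2 fold change of 2.36 ± 0.19 (SE, adjusted p = 4.45e-06). Mmp27, of the chromosome 9 cluster, had 1458 of its 1519 UMIs in fibroblast-like cells. The membrane-type Mmp16 (1.17) and Mmp11 (1.06) were higher in fibroblast-like cells by smaller log2 fold changes. Mmp19 was shared: it averaged 43.0 CPM in fibroblast-like cells and 29.7 CPM in macrophage-like cells, and the ranges of the types overlapped.

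Among the ADAMTS genes, the procollagen N-proteinase Adamts2 was a fibroblast member. It ranged from 550 CPM over a median of 667 CPM to 682 CPM in fibroblast-like cells, a log2 fold change of 3.49 ± 0.15 (SE, n = 7, adjusted p = 2.09e-07), and averaged 83.2 CPM in smooth muscle-like cells. Adamts3, the related procollagen proteinase, was also higher there (log2 fold change 1.62, adjusted p = 1.66e-05) at a mean of 9.43 CPM. The aggrecanase and versicanase Adamts5 ranged from 382 CPM over a median of 507 CPM to 738 CPM, with a log2 fold change of 3.19 ± 0.29 (SE, adjusted p = 1.11e-05).

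Adamts1, a versican-cleaving enzyme whose gene neighbours Adamts5 (chr16:85793827-85803113 and chr16:85856173-85901828), was spread more widely. It averaged 730 ± 243 CPM in fibroblast-like, 602 ± 235 CPM in endothelial-like and 319 ± 75.0 CPM in smooth muscle-like cells (SD, n = 7), and the ranges of each neighbouring pair of types overlapped. Against the other gated cells it was higher in fibroblast-like cells (log2 fold change 1.45, adjusted p = 3.42e-05), lower in smooth muscle-like cells (-0.80, adjusted p = 0.00023, but 0.018 and adjusted p = 0.932 with at most 10% mitochondrial UMIs) and not called in endothelial-like cells (-0.10 ± 0.11, SE, adjusted p = 0.523). Adamts1 is also an early response gene. Beside it, 12 summed dissociation response genes such as Fos, Jun and Egr1 reached 17380 to 26960 CPM in fibroblast-like, 7061 to 23860 CPM in endothelial-like and 6366 to 12060 CPM in smooth muscle-like cells. The part of the enzymatic digestion in its level was not tested.

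Adamts4, the other main aggrecanase, was higher in fibroblast-like cells (a mean of 27 CPM, log2 fold change 2.77, adjusted p = 3.74e-06). In endothelial-like cells it averaged 29.3 CPM but was not called (0.44 ± 0.29, SE, adjusted p = 0.225): Slc38a2deltaEC library 3, at 78.5 CPM, and Slc38a2flox/flox library 1, at 57.8 CPM, stood above the others. Adamts12 (2.71) and Adamts6 (0.49) were higher in fibroblast-like cells. Adamts15, another versican-cleaving enzyme, was called in neither fibroblast-like (0.75, adjusted p = 0.0588) nor smooth muscle-like cells (0.14, adjusted p = 0.398), with means of 19.96 and 16.3 CPM. Adamts10, which binds fibrillin microfibrils, was higher in fibroblast-like (0.85, adjusted p = 3.77e-05) and in endothelial-like cells (0.83, adjusted p = 0.000753), at means of 32.6 and 51.4 CPM.

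Of the 4 inhibitors, Timp1 and Timp2 were highest in fibroblast-like cells, Timp3 was spread over the structural cell types and Timp4 was low in fibroblast-like cells. Timp1 was a fibroblast gene, at 130 ± 27.8 CPM (SD, n = 7) against means of 10.1 CPM in smooth muscle-like and 9.05 CPM in endothelial-like cells, with a log2 fold change of 3.92 ± 0.19 (SE, adjusted p = 3.05e-07). Timp2 (chr11:118301069-118355740), which inhibits Mmp2 and also takes part in its activation by Mmp14, ranged in fibroblast-like cells from 3377 over a median of 3709 to 3899 CPM. Its log2 fold change was 2.36 ± 0.07 (SE, adjusted p = 1.3e-07), and means elsewhere were 1400 CPM in endothelial-like, 952 CPM in macrophage-like and 666 CPM in smooth muscle-like cells. In macrophage-like cells the ratio of Timp2 to fibroblast marker RNA was 0.769 to 5.51, against 0.126 to 0.158 in fibroblast-like cells.

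Timp3 (chr10:86300372-86349506), the TIMP that stays bound to the matrix and inhibits ADAMTS enzymes as well, was read across the 3 structural cell types. Endothelial-like cells averaged 3253 ± 406 CPM, fibroblast-like cells 3125 ± 548 CPM and smooth muscle-like cells 1923 ± 119 CPM (SD, n = 7), against 71.0 CPM in macrophage-like cells. The endothelial and fibroblast ranges overlapped, and both lay above that of smooth muscle-like cells. In macrophage-like cells its ratio to fibroblast marker RNA was 0.114 to 0.24, and in fibroblast-like cells 0.0869 to 0.158. These ranges overlapped, but within every library the macrophage ratio was the higher. It was 0.117 against 0.113 in Slc38a2deltaEC library 1 and 0.24 against 0.158 in Slc38a2deltaEC library 3. In endothelial-like cells the ratio was 2.46 to 6.7.

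Timp4 (chr6:115241892-115252205), the member known from cardiovascular tissue, was read mainly in endothelial-like and smooth muscle-like cells. Endothelial-like cells held 182, 102, 122 and 10.5 CPM in the Slc38a2deltaEC libraries, against 506, 75.5 and 110 CPM in the Slc38a2flox/flox libraries. Smooth muscle-like cells averaged 57.4 ± 25.2 CPM (SD, n = 7), and the fibroblast mean was 1.09 CPM. It was higher in both (log2 fold change 2.95 ± 0.19 in endothelial-like cells, SE, adjusted p = 1.17e-09, and 4.52 ± 0.35 in smooth muscle-like cells, SE, adjusted p = 6.22e-07). Timp1, Timp3 and Timp4 each lie within a Syn gene on the opposite strand, and Timp2 overlaps Cep295nl. Cep295nl lies on the same strand as Timp2, so strand cannot separate that pair, and whether the counting used strand for the others is not given in the sources used here. Reads of all 4 pairs might thus be split or shared.

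In smooth muscle-like cells 36 members passed the filter and 5 were higher and 27 lower, while 40.5% of all 14612 genes tested were higher and 39.8% lower. The median log2 fold change was -1.44 over the members and 0.00 over all genes. Besides Timp4 these were Mmp17, Adamts8, Adamts14 (1.59) and Mmp28 (0.91). Mmp17 (chr5:129584169-129611099), a glycolipid-anchored member, ranged from 31.1 over a median of 50.6 to 59.9 CPM in smooth muscle-like cells. Its mean was 3.15 CPM in fibroblast-like cells, and the log2 fold change was 4.26 ± 0.09 (SE, n = 7, adjusted p = 4.24e-10). Adamts8, an ADAMTS enzyme with reported anti-angiogenic activity, ranged from 20.5 over a median of 37.3 to 69.6 CPM, a log2 fold change of 2.96 ± 0.20 (SE, adjusted p = 2.22e-07).

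In endothelial-like cells 30 members were tested and 5 were higher and 19 lower, against 19.6% and 26.6% of all 13330 genes tested; the median log2 fold change was -1.23 over the members and -0.05 over all genes. Those higher were Timp4, the membrane-type Mmp15 (2.51), Mmp28 (2.96), Adamts10 and Adamts9 (0.91, adjusted p = 0.00429). Mmp15 and Mmp28 rest on few UMIs: 36 of 611 Mmp15 UMIs and 47 of 580 Mmp28 UMIs were in endothelial-like cells.

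In macrophage-like cells Mmp13, Mmp12 and Mmp9 were the members with the largest positive fold changes. There 33 members were tested and 4 were higher and 28 lower, against 34.5% and 41% of all 13617 genes tested, with a median log2 fold change of -2.998 over the members and -0.11 over all genes. The collagenase Mmp13 (chr9:7272514-7283331) read 279, 32.2, 25.3 and 193 CPM in macrophage-like cells of Slc38a2deltaEC libraries 1 to 4 and 16.4, 74.4 and 130 CPM in Slc38a2flox/flox libraries 1 to 3. The elastase Mmp12 read 95.6, 8.19, 0.991 and 116 CPM in the Slc38a2deltaEC libraries and 12.0, 34.9 and 73.3 CPM in the Slc38a2flox/flox libraries. The 4 libraries highest in Mmp13, namely Slc38a2deltaEC 1 and 4 and Slc38a2flox/flox 2 and 3, were also the 4 highest in Mmp12, and the genotypes overlapped. The log2 fold change of the type was 6.54 ± 0.52 for Mmp13 (SE, adjusted p = 6.03e-07) and 6.18 ± 0.87 for Mmp12 (SE, adjusted p = 6.04e-05).

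The gelatinase Mmp9 (chr2:164940780-164955850) followed another order over the libraries. It read 57.7, 264, 119 and 148 CPM in macrophage-like cells of the Slc38a2deltaEC libraries and 123, 145 and 52.9 CPM in the Slc38a2flox/flox libraries, highest in Slc38a2deltaEC library 2, which was among the 3 lowest in Mmp13. The log2 fold change of the type was 6.46 ± 0.54 (SE, n = 7, adjusted p = 9.22e-07), and Adamts14 (1.15), also higher in smooth muscle-like cells, was the remaining member called higher in this type. In Slc38a2deltaEC library 4, endothelial-like cells held Mmp13 at 44.2 CPM, together with 128 CPM of 8 macrophage markers, the highest of the 7 libraries. Macrophage-like cells held 16.4 to 279 CPM of Mmp13 over the libraries, beside 9422 to 13690 CPM of the same markers. The source of the endothelial reading was not tested.

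**Figure D2:**
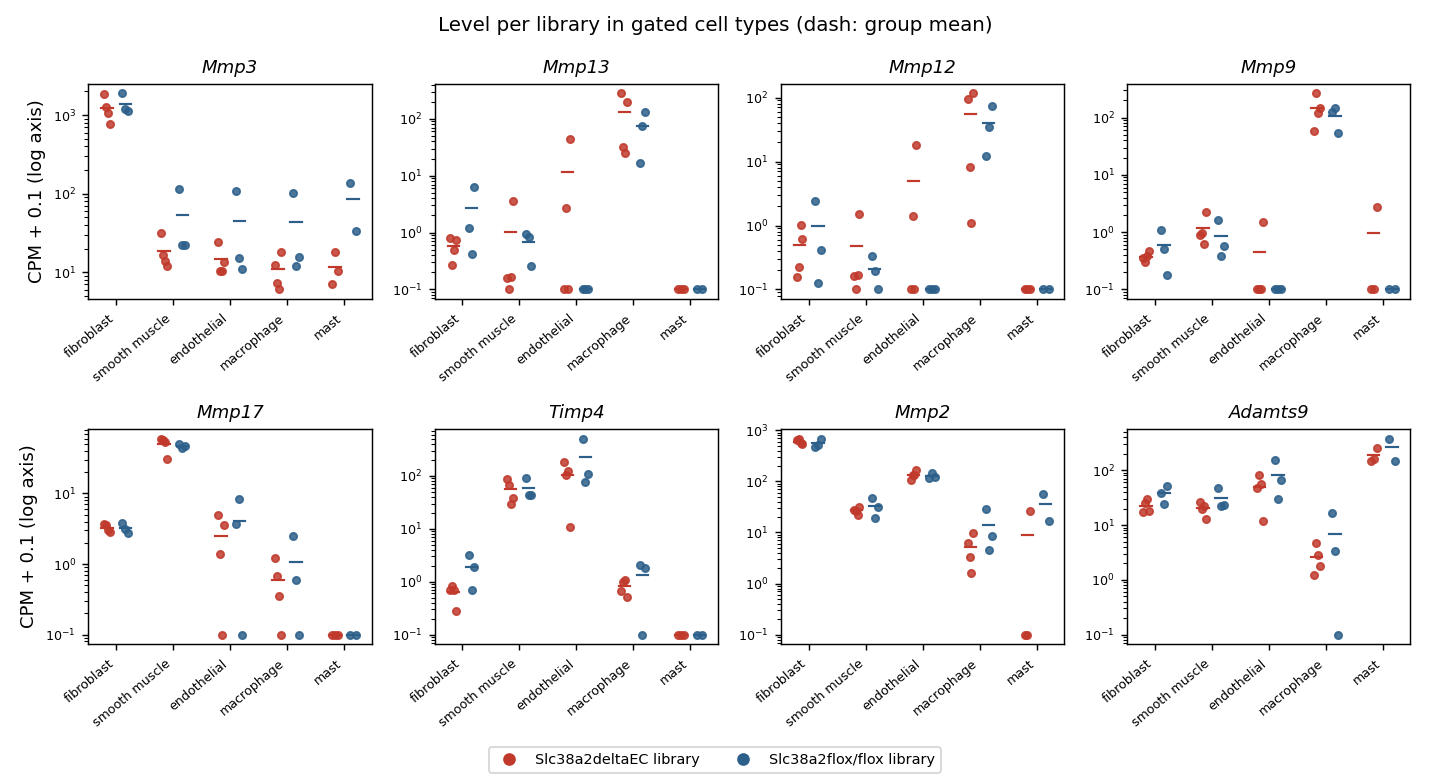
Level of 8 members in each library by gated cell type, as CPM + 0.1 on a log axis, with Slc38a2deltaEC libraries at the left of each pair and Slc38a2flox/flox libraries at the right; a dash is the group mean. Mmp3 and Mmp2 are highest in fibroblast-like cells, Mmp13, Mmp12 and Mmp9 in macrophage-like cells, Mmp17 in smooth muscle-like cells and Adamts9 in mast-like cells, while 1 Slc38a2flox/flox library lies above the rest for Mmp3 outside fibroblast-like cells.

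Rarer cells added their own members. Neutrophil-like cells, 213 in all and 124 of them in Slc38a2deltaEC library 1, held 459 Mmp9 UMIs, a pooled level of 1230 CPM (95% Poisson interval 1120 to 1348, counting error only). The neutrophil collagenase Mmp8 stood at 659 CPM in them (580 to 747) and at 214 CPM in 133 monocyte-like cells (180 to 253), and these types held 57.7% and 32.2% of its 426 UMIs. The glycolipid-anchored Mmp25, known as leukolysin, stood at 153 CPM in neutrophil-like cells (116 to 198). It was also read in T-like cells, at 116, 137 and 66.2 CPM in Slc38a2deltaEC libraries 2, 3 and 4 and 232 CPM in Slc38a2flox/flox library 2, the 4 libraries with at least 20 such cells. Its log2 fold change in T-like cells was 4.98 ± 0.48 (SE, adjusted p = 4.7e-24). Mmp25 was the 1 member higher in T-like cells, with 22 lower of 30 tested, against 11.7% and 26.1% of all 13577 genes. Adamts6 had its highest mean there too, 79.9 ± 98.6 CPM (SD, n = 4), with 228 CPM in Slc38a2deltaEC library 3, and was not called (adjusted p = 0.151).

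Mast-like cells were marked by Adamts9, a versican-cleaving enzyme (chr6:92772699-92943492). It read 146, 161 and 258 CPM in Slc38a2deltaEC libraries 2, 3 and 4 and 377 and 149 CPM in Slc38a2flox/flox libraries 1 and 2, with a log2 fold change of 2.85 ± 0.24 (SE, n = 5 libraries, adjusted p = 7.31e-17). Its mean was 63.7 CPM in endothelial-like cells and 29.1 CPM in fibroblast-like cells, where it was not called (0.21, adjusted p = 0.354). It was the only member higher of 29 tested in mast-like cells, with 23 lower, against 13.3% and 27.8% of all 13539 genes. In erythroid-like cells 1 member was higher and 7 lower of 28 tested, against 2.04% and 2.33% of all 12860 genes. The higher one was Adamts3, read in Slc38a2deltaEC library 4 alone, at 19.6 CPM.

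**Figure D3:**
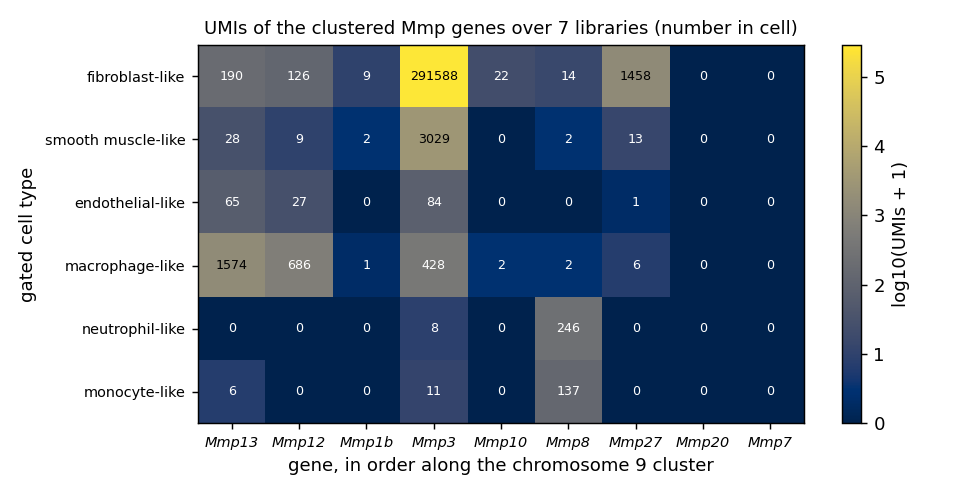
UMIs of the 9 Mmp genes of the chromosome 9 cluster, in chromosomal order from left to right, over the cells of each gated type in all 7 libraries; the colour is log10(UMIs + 1) and the number is the UMI count. Mmp3 and Mmp27 peak in fibroblast-like cells, Mmp13 and Mmp12 in macrophage-like cells and Mmp8 in neutrophil-like cells, and Mmp20 and Mmp7 are at 0 in all.

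The neighbouring genes of the chromosome 9 cluster thus peaked in different cells, as the plot of the cluster in chromosomal order shows. Macrophage-like cells held 1574 of 2273 Mmp13 UMIs and 686 of 1229 Mmp12 UMIs. Fibroblast-like cells held 291588 of 300293 Mmp3 UMIs. Neutrophil-like cells held 246 of 426 Mmp8 UMIs. The AP-1 letters were present in the windows of Mmp13 and Mmp3 and at the internal start of Mmp12, and not at its upstream start or in the windows of Mmp8 and Mmp27, so that genes with and without them were read in fibroblast-like cells. Mmp12 overlaps Mmp1b on the opposite strand, and Mmp1b had 13 UMIs.

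The remaining members were sparse. Adamts7, Adamts16, Adamts19 and Adamts20 had 411, 335, 625 and 279 UMIs, of which 92.9%, 92.8%, 89.4% and 85.7% were in fibroblast-like cells. Adamts17 had 345 UMIs, with 77.4% there. Adamts14, a further procollagen N-proteinase, had 414 UMIs, with 44.7% in smooth muscle-like cells. Such shares follow the size of a type as well as the level in it. NK-like cells, at most 11 in any library, held 8 Adamts14 UMIs, many for so few cells, and were too few to be tested. Adamts13, the plasma protease of von Willebrand factor made mainly in the liver, had 95 UMIs. Adamts18, Mmp24, Mmp10, Mmp1b and Mmp21 had 35, 29, 28, 13 and 6 UMIs, and no comparison of levels was drawn from them.

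Fibroblast-like cells were divided into 4 states by marker genes, none of them a member: Fmod and Hhip; Il6, Lif, Cxcl1 and Ptgs2; Pi16, Dpp4 and Sema3c, genes of adventitial progenitor-like fibroblasts in other tissues; and Cilp, Myoc and Angptl1. These markers had been picked from earlier clusters of the same cells, so the tests between states are not independent of that choice. Not all fibroblast-like cells were placed: 775 to 1600 per library had no state. Their median depth was 2093 to 4781 UMIs per cell, in each library below that of all 4 states, so placement depends on depth. Each state was tested against the sum of the other 3 in the same library. Pi16 Dpp4 fibroblasts had 8 members higher and 12 lower of 30 tested, while 16.9% and 20.7% of all 12599 genes were higher and lower. Fmod Hhip fibroblasts had 12 higher and 9 lower of 31, against 18.7% and 20.6% of 13205 genes. Il6 Lif fibroblasts had 7 higher and 10 lower of 31, against 18.9% and 14.2% of 12972 genes, and Cilp Myoc Angptl1 fibroblasts had 3 higher and 6 lower of 25, against 2.83% and 5.8% of 11698 genes. The median log2 fold change of the members was -0.11, 0.09, 0.03 and -0.19 in these 4 states, against 0.01, 0.00, -0.02 and -0.02 over all genes. Without the library as a term 12 members were called in Pi16 Dpp4, 8 in Fmod Hhip, 4 in Il6 Lif and 5 in Cilp Myoc Angptl1 fibroblasts. The share of all genes called in that setting is not given here, so these counts cannot be read as particular to the members.

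Pi16 Dpp4 fibroblasts were the high state for Adamts5. It ranged there from 690 over a median of 853 to 1197 CPM, and this state was the highest of the 4 in 7 of 7 libraries. Its mean was 912 ± 173 CPM (SD, n = 7), against 377, 391.6 and 507 CPM in the Fmod Hhip, Il6 Lif and Cilp Myoc Angptl1 fibroblasts. The log2 fold change was 1.11 ± 0.10 (SE, adjusted p = 1.01e-06). Adamts16 averaged 5.34 ± 1.75 CPM in this state (SD, n = 7), against 0.121 CPM in Fmod Hhip and 0.488 CPM in Il6 Lif fibroblasts. Pi16 Dpp4 fibroblasts were highest in it in 6 of 7 libraries and Cilp Myoc Angptl1 fibroblasts in 1. The log2 fold change of the Pi16 Dpp4 state was 4.18 ± 0.29 (SE, adjusted p = 1.28e-07). Adamts19 (1.73), Mmp11 (0.63), Adamts6 (0.41), Mmp14 (0.37), Adamts12 (0.37) and Timp2 (0.15) were the other members higher in it. Mmp14 and Timp2 were each highest in this state in 7 of 7 libraries, at means of 214 and 4246 CPM. Lower in it were Adamts4 (-1.54), Adamts9 (-1.08), Mmp3 (-0.98), Mmp25 (-0.83), Adamts1 (-0.71) and Adamts2 (-0.56), among others.

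Fmod Hhip fibroblasts were the high state for Mmp3. It ranged there from 1266 over a median of 1420 to 2387 CPM, against means of 1294 CPM in Il6 Lif, 828 CPM in Pi16 Dpp4 and 588 CPM in Cilp Myoc Angptl1 fibroblasts, and the state was the highest in 7 of 7 libraries. The log2 fold change was 0.64 ± 0.06 (SE, adjusted p = 6.37e-07). Mmp23 averaged 191 ± 52.0 CPM in this state (SD, n = 7; 0.85, adjusted p = 2.29e-07), Adamts2 793 ± 40.8 CPM (0.52, adjusted p = 2.98e-07) and Timp3 3715 ± 583 CPM (0.45, adjusted p = 1.7e-06), and all were highest here in 7 of 7 libraries. Mmp17 (1.02), Adamts7 (0.99), Adamts17 (0.92), Mmp28 (0.74), Adamts15 (0.55), Adamts9 (0.48), Adamts10 (0.42) and Mmp25 (0.42) were also higher. The call of Mmp25 was lost on leaving out any of 6 of the 7 libraries (adjusted p 0.0505 to 0.121) and with DESeq2 (adjusted p = 0.0789). Adamts5 (-0.71), Mmp14 (-0.38) and Mmp2 (-0.19) were lower.

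Il6 Lif fibroblasts were the high state for Adamts1, Adamts4 and Timp1. Adamts1 ranged there from 698 over a median of 953 to 1437 CPM, highest of the 4 states in 7 of 7 libraries, with a log2 fold change of 0.76 ± 0.07 (SE, adjusted p = 1.83e-05). Adamts4 averaged 36.8 ± 22.2 CPM (SD, n = 7; 0.83, adjusted p = 8.36e-05) against 10.7 CPM in Pi16 Dpp4 fibroblasts, and was highest in 6 of 7 libraries. Timp1 averaged 157 ± 51.9 CPM (0.53, adjusted p = 0.000638), highest in 5 of 7. Mmp2 (0.27), Adamts8 (0.41), Adamts9 (0.32) and Mmp19 (0.21) were also higher. The call was lost for Adamts8 on leaving out any of 5 libraries (adjusted p 0.056 to 0.0687), for Mmp19 on leaving out any of 4 (0.0568 to 0.0907) and for Adamts9 without Slc38a2flox/flox library 1 (0.0527). Adamts5 (-0.54), Mmp23 (-0.53) and Adamts15 (-0.60) were lower. Beside these, 12 dissociation response genes summed to 19200 to 29970 CPM in Il6 Lif fibroblasts and to 14740 to 24130 CPM in Pi16 Dpp4 fibroblasts. A list of 8 cytokine inducers, which holds the state gene Il6 itself, read 2350 to 4175 CPM in Il6 Lif fibroblasts and 989 to 1844 CPM in Pi16 Dpp4 fibroblasts. Their part in the levels of Adamts1, Adamts4 and Timp1 was not tested.

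Cilp Myoc Angptl1 fibroblasts, 0.991% to 2.99% of fibroblast-like cells, held the least of both main inhibitors. Timp3 averaged 1630 ± 142 CPM (SD, n = 7; -1.02, adjusted p = 4.02e-10) and Timp2 2870 ± 103 CPM (-0.47, adjusted p = 4.66e-06), each lowest of the 4 states in 7 of 7 libraries. Mmp2 was highest there in 7 of 7, at 769 ± 139 CPM (0.32, adjusted p = 0.00501). Adamts3 averaged 23.6 CPM (1.39, adjusted p = 5.85e-05), again highest in 7 of 7, and Mmp11 (0.72) was the remaining member higher. The call of Mmp11 was lost without Slc38a2flox/flox library 1 (adjusted p = 0.0791) and without Slc38a2deltaEC library 2 (0.0723) or 3 (0.0584). Mmp3 was lower (-1.32, adjusted p = 2.79e-05), with a range of 36.8 to 1375 CPM. Mmp27 (-2.31), Mmp23 (-0.47) and Adamts1 (-0.37) were lower as well. Mmp16 was called in none of the 4 states. The neighbours Adamts1 and Adamts5 thus peaked in different states, and Mmp2 and Mmp3 did too.

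**Figure D4:**
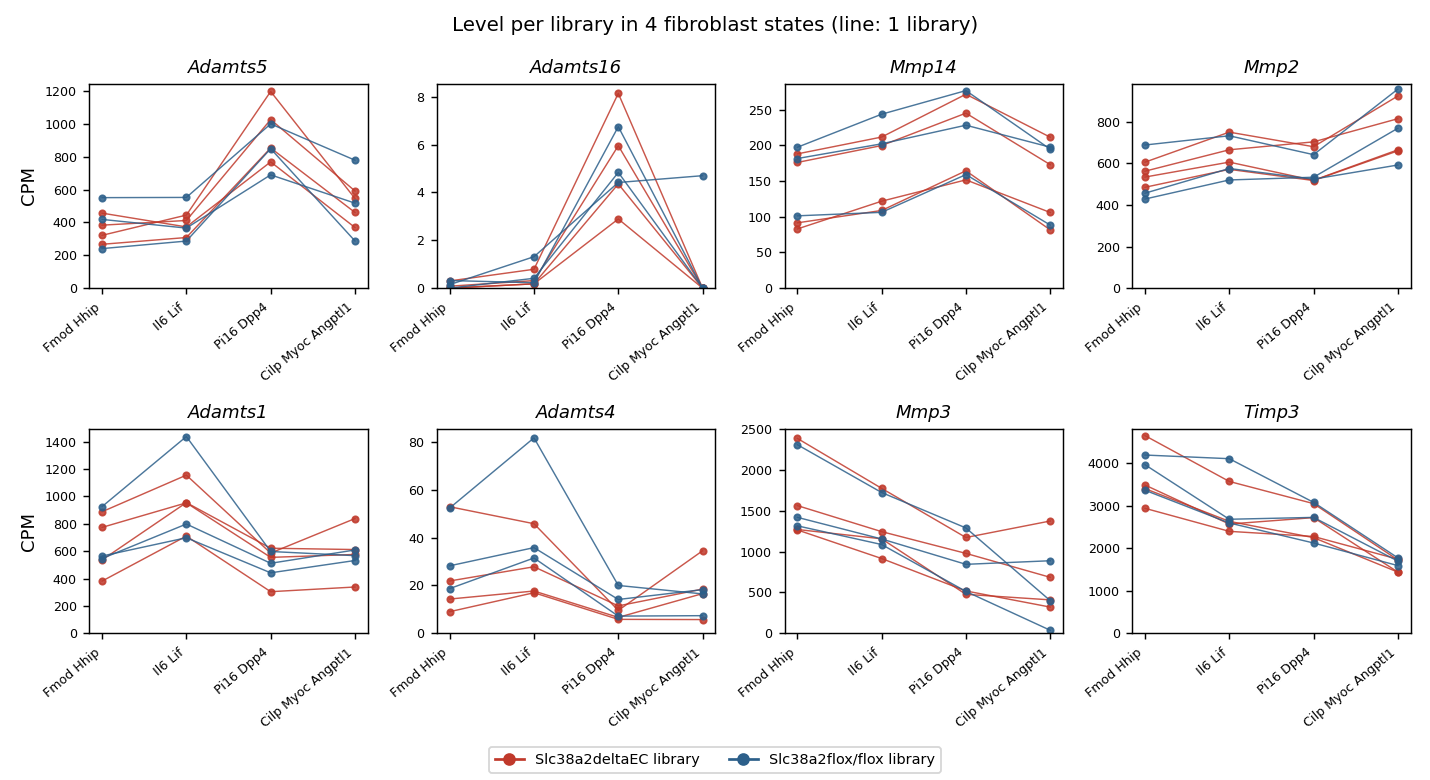
Level of 8 members in 4 fibroblast states, in CPM, with 1 line per library (Slc38a2deltaEC libraries first in the legend, Slc38a2flox/flox libraries second). Adamts5, Adamts16 and Mmp14 peak in Pi16 Dpp4 fibroblasts, Adamts1 and Adamts4 in Il6 Lif fibroblasts, Mmp2 in Cilp Myoc Angptl1 fibroblasts and Mmp3 and Timp3 in Fmod Hhip fibroblasts.

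The share of each state among all fibroblast-like cells, those of no state included, did not separate the genotypes. Pi16 Dpp4 fibroblasts made up 23.3% ± 9.39 of fibroblast-like cells in Slc38a2deltaEC libraries (SD, n = 4) and 19.1% ± 5.39 in Slc38a2flox/flox libraries (SD, n = 3; exact two-sided permutation p = 0.6, adjusted p = 0.914). Fmod Hhip fibroblasts made up 28.1% ± 9.52 and 30.7% ± 7.41 of them (exact permutation p = 0.743), Il6 Lif fibroblasts 22.7% and 23.5% (exact permutation p = 0.914) and Cilp Myoc Angptl1 fibroblasts 1.86% and 1.13% (exact permutation p = 0.171, adjusted p = 0.686), Slc38a2deltaEC libraries first in each. With 35 splits the smallest p possible is 0.0286. Slc38a2deltaEC library 4 had the lowest Fmod Hhip share, 14.7%, and the highest Pi16 Dpp4 share, 36.4%, and also the highest fibroblast level of Adamts5 and the lowest of Mmp3.

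Between genotypes, no member passed the test in any of the 4 cell types or 4 fibroblast states. With edgeR 0 members and 0 of all genes were called (0% in each comparison). At an unadjusted p under 0.05 stood 5 of 37 members tested in fibroblast-like cells, 3 of 27 in smooth muscle-like, 4 of 15 in macrophage-like and 2 of 11 in endothelial-like cells, where 4.62%, 5.07%, 8.09% and 6.05% of all genes tested did so. With DESeq2 0 members were called in each, and 11, 9, 4 and 1 of all genes. The median log2 fold change of the members was -0.10, -0.16, -0.51 and -0.15, against -0.01, -0.01, -0.005 and -0.01 over all genes. A p that misses the threshold does not show that the genotypes were alike.

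In fibroblast-like cells the genotypes overlapped for the abundant members. Mmp2 averaged 601 ± 69.3 CPM in Slc38a2deltaEC libraries (SD, n = 4) and 562 ± 112 CPM in Slc38a2flox/flox libraries (SD, n = 3), a log2 fold change of 0.11 ± 0.20 (SE, adjusted p = 0.967). Mmp3 averaged 1241 ± 468 CPM and 1397 ± 423 CPM in the same order of groups (-0.14 ± 0.28, SE, adjusted p = 0.969). Mmp14 stood at 219, 202, 113 and 131 CPM in Slc38a2deltaEC libraries, against 196, 232 and 120 CPM in Slc38a2flox/flox libraries, so that libraries of both groups were high and low (-0.10 ± 0.25, SE, adjusted p = 0.98). Timp1 stood at 143, 135, 181 and 100 CPM in Slc38a2deltaEC libraries, against 103, 128 and 118 CPM in Slc38a2flox/flox libraries (0.30 ± 0.22, SE, adjusted p = 0.944). For Timp3 the log2 fold change was -0.09 ± 0.25 (SE, adjusted p = 0.98).

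Mmp25 had the smallest unadjusted p of the members in fibroblast-like cells. It read 3.65, 3.19, 2.67 and 2.30 CPM in Slc38a2deltaEC libraries and 8.13, 4.46 and 4.56 CPM in Slc38a2flox/flox libraries, without overlap, and its log2 fold change of -0.91 ± 0.25 did not pass (SE, edgeR adjusted p = 0.944). Mmp16 was the other of 2 members in which every Slc38a2deltaEC library lay below every Slc38a2flox/flox library, as was the case for 2.75% of all genes. Of the 37 members tested, 0 lay higher without overlap, as 2.07% of all genes did. Timp4 (-1.65, adjusted p = 0.944) and Mmp13 (-2.40, adjusted p = 0.944) came next in p, at 0.184 to 3.08 and 0.173 to 6.34 CPM over the libraries.

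In macrophage-like cells the largest differences rested on Slc38a2flox/flox library 1. Mmp3 read 12.4, 7.31, 5.95 and 17.9 CPM in Slc38a2deltaEC libraries, against 103, 12.0 and 15.3 CPM in Slc38a2flox/flox libraries (log2 fold change -2.11 ± 0.66, SE, adjusted p = 0.547), and without that library the log2 fold change was -0.31. For Adamts2 the values were -1.34 with it and -0.35 without it, for Timp3 -1.11 and -0.53, and for Mmp2 -1.55 and -0.19. In that library the ratio of Mmp3 to fibroblast marker RNA was 0.0865 in macrophage-like and 0.0762 in fibroblast-like cells. The macrophage members proper did not separate the genotypes: Mmp13 (0.86 ± 0.85, SE, adjusted p = 0.804), Mmp12 (0.57 ± 1.10, SE, adjusted p = 0.911) and Mmp9 (0.46 ± 0.44, SE, adjusted p = 0.798). Of the 15 members tested in this type, 0 were without overlap of the genotypes, against 4.03% of all genes higher and 4.42% lower. Mmp14 (0.48, adjusted p = 0.809) and Timp1 (-0.05, adjusted p = 0.996) did not pass either.

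In smooth muscle-like cells Mmp3 had a log2 fold change of -1.36, and of -0.16 without Slc38a2flox/flox library 1 (adjusted p = 0.908). Adamts12 averaged 4.24 ± 1.64 CPM in Slc38a2deltaEC libraries and 9.35 ± 5.30 CPM in Slc38a2flox/flox libraries (-0.98, adjusted p = 0.908), and Mmp25 0.897 ± 0.217 and 2.06 ± 1.34 CPM (-1.04, adjusted p = 0.908). Timp3 (0.04), Mmp14 (-0.06), Mmp2 (-0.23) and Timp1 (-0.29) did not pass. Of the 27 members tested here, 0 were without overlap of the genotypes, against 1.38% of all genes higher and 3.85% lower.

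In endothelial-like cells, the cells named in the genotype, 11 members were tested. Adamts5 read 24.0, 26.1, 13.1 and 19.6 CPM in Slc38a2deltaEC libraries, against 50.6, 30.2 and 43.8 CPM in Slc38a2flox/flox libraries. The groups did not overlap, as was the case in this direction for 4.46% of all genes (3.27% in the other direction, with 0 members), and the log2 fold change of -0.92 ± 0.36 did not pass (SE, adjusted p = 0.799). Its ratio to fibroblast marker RNA in these cells, 0.0176 to 0.0473, overlapped that in fibroblast-like cells, 0.0136 to 0.0281. Within libraries the endothelial ratio was the higher in all but Slc38a2deltaEC library 4, where it was 0.0176 against 0.027. Mmp14 read 86.4, 44.4, 37.4 and 56.8 CPM in Slc38a2deltaEC libraries, against 7.22, 21.8 and 54.8 CPM in Slc38a2flox/flox libraries, which overlapped (1.15 ± 0.48, SE, adjusted p = 0.799). Timp4 had a log2 fold change of -1.22 (adjusted p = 0.806), and of 0.11 without Slc38a2flox/flox library 1, which held 506 CPM. Mmp2 (0.15) and Timp3 (0.13) did not pass.

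**Figure D5:**
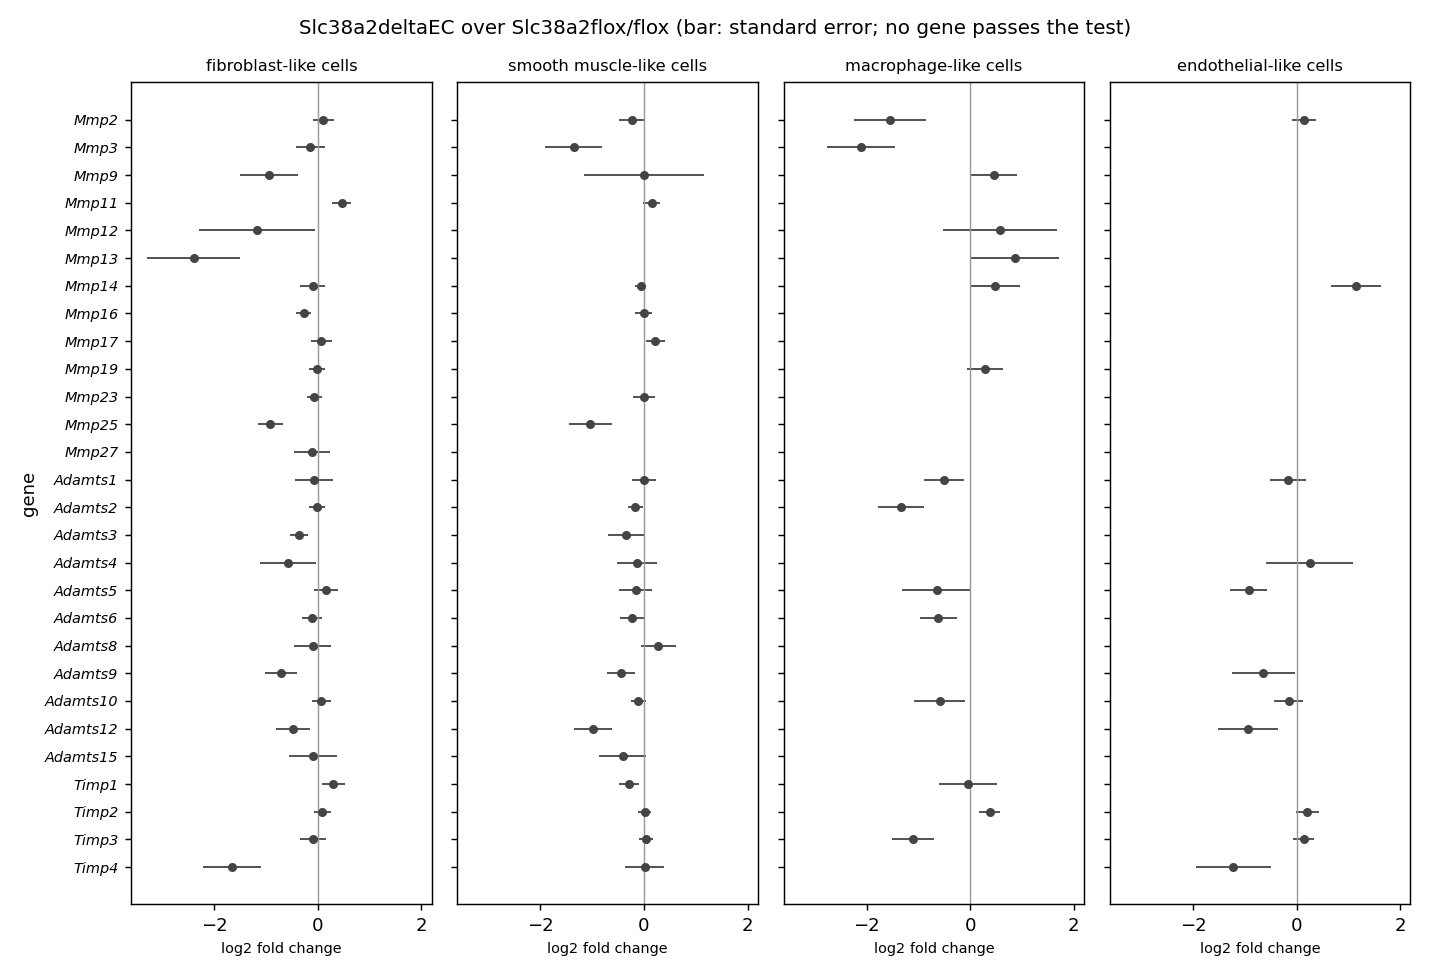
Log2 fold change of Slc38a2deltaEC over Slc38a2flox/flox libraries for the members with at least 1000 UMIs that passed the low-count filter, in 4 gated cell types; points are edgeR estimates and bars standard errors. Mmp2, Mmp14, Timp2 and Timp3 lie near 0 in fibroblast-like cells, Mmp3 lies lowest in macrophage-like cells at -2.11, and no gene passes the test.

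The fibroblast states gave the same count of 0 with edgeR. In Pi16 Dpp4 fibroblasts 5 of 29 members had an unadjusted p under 0.05, in Il6 Lif fibroblasts 3 of 28, in Fmod Hhip fibroblasts 2 of 29 and in Cilp Myoc Angptl1 fibroblasts 2 of 18, where 5.71%, 4.55%, 3.9% and 5.94% of all genes did. DESeq2 called 0 members in each, and 2, 4, 8 and 2 of all genes. Mmp25 had the smallest p in Pi16 Dpp4 (-1.24, adjusted p = 0.859) and Fmod Hhip fibroblasts (-1.01, adjusted p = 0.99), and was second in Il6 Lif fibroblasts (-0.68, adjusted p = 0.94), at 1.51 to 9.52 CPM. Next to it stood Adamts6 (-0.39) and Adamts12 (-0.55) in Pi16 Dpp4, Mmp16 (-0.38) and Adamts7 (0.74) in Fmod Hhip, and Adamts9 (-0.88) and Mmp13 (-2.11) in Il6 Lif fibroblasts. In Cilp Myoc Angptl1 fibroblasts they were Mmp16 (-0.95), Adamts6 (-0.95) and Adamts10 (0.44), with adjusted p from 0.828 to 0.873. Mmp2, Mmp3, Mmp14, Timp1 and Timp3 had log2 fold changes between -0.27 and 0.59 over the 4 states.

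A list of 36 partner genes (membrane and plasma inhibitors, ADAM proteases, ADAMTS-like proteins, the plasminogen system, proprotein convertases, cathepsins and substrates) was counted in the same fits. In fibroblast-like cells 17 of 34 tested were higher and 7 lower, where 34.5% and 34.4% of all genes were. Those of smallest p included the endocytic receptor Lrp1, which clears protease and inhibitor complexes (2.48), the collagen-degrading cathepsin Ctsk (4.65) and the plasminogen activator Plat (2.87). Macrophage-like cells had 12 higher and 20 lower of 33, where 34.5% and 41% of all genes were, with Ctsb (2.62), Adam17 (1.8) and the urokinase Plau (3.47) higher. In endothelial-like cells 6 were higher and 22 lower of 32, where 19.6% and 26.6% of all genes were, with Adam10 (2.48) higher. In smooth muscle-like cells 4 were higher and 25 lower of 34, where 40.5% and 39.8% of all genes were. Reck, a membrane-anchored inhibitor of several Mmp enzymes, averaged 128 ± 14.3 CPM in fibroblast-like and 77.6 ± 12.7 CPM in endothelial-like cells (SD, n = 7).

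Between states, the ADAMTS substrate Vcan, versican, and the proprotein convertase Pcsk6 were higher in Pi16 Dpp4 fibroblasts (0.85 and 1.48) and lower in Fmod Hhip fibroblasts (-1.19 and -1.16), and Fn1, fibronectin, was likewise (1.498 and -2.99). Il6 Lif fibroblasts had more Thbs1 (1.63) and more of the urokinase receptor Plaur (1.23). Of the list, 13 of 31 tested were higher and 7 lower in Pi16 Dpp4 fibroblasts, 8 and 18 of 31 in Fmod Hhip, 13 and 8 of 31 in Il6 Lif and 6 and 4 of 30 in Cilp Myoc Angptl1 fibroblasts. Of all genes 16.9% and 20.7%, 18.7% and 20.6%, 18.9% and 14.2%, and 2.83% and 5.8% were higher and lower in these 4 states. Between genotypes 0 partners were called by edgeR in each of the 8 comparisons, with list medians between -0.09 and 0.05, and Serpine2 in macrophage-like cells (-2.05) had an adjusted p of 0.547, the smallest of those comparisons.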

How the data were processed

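Aortic cells of 7 libraries were captured on BD Rhapsody, per the labels' protocols. The authors deposited whole-number UMI counts per gene and barcode for each library, not normalized. The submitters' processing notes name CASAVA 1.8, STARsolo 2.7.10a, Seurat and the build mm10, without giving their roles or order. Strand use in counting is not given in the sources used here, which matters for members that overlap another gene. Per library 22646246 to 73102988 UMIs set the precision, and Poisson intervals cover counting error only.

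Barcodes with at least 200 genes and at most 25% mitochondrial UMIs were kept, and doublets called by Scrublet (expected rate 0.06; 0.869% to 2.07% per library) were removed (scanpy 1.11.5). Libraries shared 1.1% to 1.79% of the barcodes of the smaller one. A cell was given the type with the largest share of its markers detected, with at least 3 markers and a lead of 0.25 in that share. Fibroblast states needed 2 state genes, and ties were left out. UMIs were summed per library and type where a library had at least 20 such cells. The sums were tested with edgeR 4.0.16 (TMM, filterByExpr, quasi-likelihood, Benjamini-Hochberg over all genes, threshold 0.05): 8 fits of Slc38a2deltaEC against Slc38a2flox/flox, and 7 cell type and 4 state fits with the library as a block. CPM used all UMIs of the type as the total. The fits were also run on simulated counts with known changes, made from fibroblast-like, macrophage-like and Pi16 Dpp4 sums with a fixed spread. Sparser types were not simulated, and the outcome is not given here, so this does not vouch for their results. Alternatives were DESeq2 1.42.0, its size factors, no filter on low counts, at most 10% mitochondrial UMIs, at least 4 markers, a replicate block or no library term, leaving out each library and, added after seeing the data, no lead between types.

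The members, the marker, partner, dissociation and cytokine lists and the rule for named genes were chosen with earlier results of these data known, and the scoring of cells by markers was set after the data were seen. Members with at least 1000 UMIs are described by type and state; between genotypes the 3 members of smallest p per comparison and Mmp2, Mmp3, Mmp14, Timp1 and Timp3 are named. Coordinates come from the GRCm38 annotation, matched by gene ID for all 45 members. Values of 1 partner gene are not reported here.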

Additional observations from a re-analysis of the deposited data

Results flagged for a closer look

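Among the 4 Slc38a2deltaEC libraries, 69 member and cell type combinations were examined for a library far from the other 3, and 4 were found; chance alone gives about 1 in 20. Adamts2 in fibroblast-like cells was 550 CPM in Slc38a2deltaEC library 4, against 667, 676 and 674 CPM in the other 3. Mmp16 in smooth muscle-like cells was 15.3 CPM in Slc38a2deltaEC library 1, against 18.2, 18.1 and 18.4 CPM. Adamts5 in macrophage-like cells was 29.4 CPM in Slc38a2deltaEC library 4, against 4.53, 5.85 and 4.46 CPM, and the fibroblast markers in those cells summed to 636 CPM, the highest among the Slc38a2deltaEC libraries. Adamts1 in endothelial-like cells was 355 CPM in Slc38a2deltaEC library 1, against 637, 637 and 607 CPM, and the 12 dissociation response genes summed to 7061 CPM there, against 14040 to 23860 CPM in the other 6 libraries. The part of these marker and response levels was not tested.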

How the results depend on the processing

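Of 2178 alternative values for 156 named cell type and state results, 2107 kept direction and call, 69 lost the call (35 of them without a library term) and 2 turned direction: with at most 10% mitochondrial UMIs, in smooth muscle-like cells, Mmp16 stood at 0.036 and Adamts1 at 0.018. Members called differed by over 1.5 times in T-like cells with at least 4 markers (14), in erythroid-like cells with at most 10% mitochondrial UMIs (5) and with no lead between types (5), and without a library term in Fmod Hhip (8), Il6 Lif (4), Pi16 Dpp4 (12) and Cilp Myoc Angptl1 fibroblasts (5). Leaving out 1 library gave 24 to 27 members called in endothelial-like, 32 to 33 in smooth muscle-like, 31 to 34 in fibroblast-like, 30 to 34 in macrophage-like, 22 to 24 in mast-like, 18 to 22 in T-like and 4 to 6 in erythroid-like cells, and 19 to 21, 13 to 18, 20 to 22 and 8 to 11 in Fmod Hhip, Il6 Lif, Pi16 Dpp4 and Cilp Myoc Angptl1 fibroblasts. The share of all genes called in these alternative settings is not given here, so the counts cannot be read as particular to the members.

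Between genotypes, leaving out 1 library called 0 members in each comparison. The share of all genes called on leaving out 1 library is not given here, so this count cannot be read as particular to the members. Without the filter on low counts edgeR called 3 members in macrophage-like cells (Mmp3 -2.05, adjusted p = 1.52e-05; Adamts2 -1.29, adjusted p = 0.0212; Timp3 -1.05, adjusted p = 0.00642) and 2 in endothelial-like cells, Timp4 (-1.16, adjusted p = 0.00552) and Mmp13 (adjusted p = 0.00213), whose endothelial level was 44.2 CPM in Slc38a2deltaEC library 4 and 0 in all 3 Slc38a2flox/flox libraries. Of all genes, 0.745% were called in macrophage-like and 0.364% in endothelial-like cells in this setting. The cause was not tested. Mmp3, Adamts2, Timp3 and Timp4 are the values that rested on Slc38a2flox/flox library 1.

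Small genotype effects turned sign when 1 library was left out. In fibroblast-like cells they then ranged from -0.28 to 0.099 for Timp3, -0.026 to 0.36 for Mmp2, -0.29 to 0.095 for Mmp14 and -0.36 to 0.085 for Mmp3. In smooth muscle-like cells they ranged from -0.057 to 0.089 for Timp3 and -0.50 to 0.087 for Mmp2. In macrophage-like cells they ranged from -0.39 to 0.76 for Timp1 and -0.16 to 0.88 for Mmp14, and in endothelial-like cells from -1.685 to 0.11 for Timp4 and -0.022 to 0.26 for Mmp2. With at most 10% mitochondrial UMIs, Timp1 (0.60) and Mmp14 (0.22) turned in smooth muscle-like cells, and Timp1 in macrophage-like cells did so with DESeq2 (0.012) and with no lead between types (0.17). The causes were not tested. State shares, as differences in percentage points, ranged from -6.76 to 1.84 (Fmod Hhip), -3.96 to 2.96 (Il6 Lif), -0.209 to 7.21 (Pi16 Dpp4) and 0.35 to 0.934 (Cilp Myoc Angptl1) with 1 library left out.

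Libraries of equal replicate number were not shown to be paired: their deviations correlated at 0.23, -0.0047 and 0.28 in pairs 1 to 3. The title of the second Slc38a2flox/flox library holds 2 numbers that differ, and the pairs use the one in its sample name. With the replicate block 0 members were called in each of the 8 genotype comparisons. Of all genes it called 12 in fibroblast-like, 4 in smooth muscle-like, 1 in macrophage-like and 0 in endothelial-like cells. In Fmod Hhip, Il6 Lif, Pi16 Dpp4 and Cilp Myoc Angptl1 fibroblasts it called 11, 0, 4 and 0 genes. With this block Timp3 (0.013), Mmp14 (0.0017) and Mmp3 (0.041) in fibroblast-like cells and Mmp2 (-0.0495) in endothelial-like cells turned sign.

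With 46 to 370 endothelial-like cells per library, 11 of 45 members could be compared between genotypes there with the filter on low counts; the others were too sparse to pass it.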

Other observations

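Ungated cells had fewer than 3 markers of their best type, or a lead under 0.25 over the next type. They held 381 of 1229 Mmp12 UMIs and 409 of 2273 Mmp13 UMIs. Mmp12 in these ungated cells read 37.5, 60.2, 16.9 and 72.3 CPM in Slc38a2deltaEC libraries, against 1.26, 4.40 and 0 CPM in Slc38a2flox/flox libraries. Mmp13 in them read 14.2, 72.8, 0.41 and 101 CPM in Slc38a2deltaEC libraries, against 1.51, 5.03 and 2.699 CPM in Slc38a2flox/flox libraries. The groups did not overlap for Mmp12, as was so in this direction for 2.53% of the 10324 genes with at least 100 UMIs in these cells, and overlapped for Mmp13. Of the 26 members among those genes, Mmp12 was the 1 that lay higher without overlap. In the other direction 1 member, Mmp25, lay lower without overlap, as 2.76% of the genes did. These differences were not tested, as these cells are not a cell type. The 8 macrophage markers in them summed to 1197, 887, 1031 and 1883 CPM in Slc38a2deltaEC libraries, against 1046, 1159 and 167 CPM in Slc38a2flox/flox libraries. Both Mmp12 and Mmp13 read higher in ungated than in macrophage-like cells of Slc38a2deltaEC library 2, as did Mmp12 in Slc38a2deltaEC library 3. In all other cases the macrophage-like level was the higher. The source of these ungated UMIs was not tested.

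Small classes gave pooled levels only. In 49 lymphatic endothelial-like cells Timp3 stood at 6188 CPM (95% Poisson interval 5850 to 6540) and Timp2 at 2407 CPM (2198 to 2630). In 65 Schwann-like cells Timp3 stood at 3257 CPM (2974 to 3560), Mmp2 at 321 CPM (237 to 426) and the membrane-type Mmp15 at 134 CPM (81.7 to 207).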
